A study of Mus musculus with 11 samples.

Results

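The genes described here are 38 contractile and adhesion genes, chosen as known cytoskeletal targets of serum response factor (SRF) and its cofactors, the myocardin-related transcription factors (MRTFs), without the actin genes. They are the tropomyosins Tpm1 to Tpm4, the calponins, transgelins, caldesmon and smoothelin, the chains of myosin II, actin cross-linkers, focal adhesion proteins, LIM-domain proteins and regulators of filament turnover. Members were found by matching RefSeq accessions to symbols. Each of the 38 had exactly 1 row among the 23286 rows of the expression table, and all 38 were among the 11702 rows compared, those with at least 1 FPKM in at least 1 group.

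RNA-seq of polyA RNA was done on MEPM cells, the mesenchyme of the mouse embryonic palate at E13.5, whose cells build the skeleton and connective tissue of the roof of the mouth. The FGF1 group (3 libraries) was treated after starvation for 1 h with FGF1 at 50 ng/mL, together with heparin at 1 µg/mL, and the PDGFA group (4 libraries) had 30 ng/mL PDGFA for 1 h. The starved group (4 libraries) had neither ligand. All cells were grown in 10% serum and held overnight in 0.1% serum before treatment. Heparin was given with FGF1 alone, so effects of FGF1 and of heparin cannot be told apart, and the ligand doses differed. Genotype, the sex of the embryos and whether replicates were separate litters or cultures are not given in the labels.

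Every group had 1 FPKM value per gene (fragments for each kilobase of a transcript, relative to the fragments sequenced), which the authors estimated from the libraries together. Its deposited bounds stand in brackets below. No value per library was used, so there is no SD and no p-value. A gene was called higher or lower only where the bracketed intervals of the 2 groups lay wholly apart. As a size rule without a test, a ratio of at least 1.5 on FPKM + 0.5 was counted as well. Each log2 fold is on the FPKM + 0.5 scale, and its approximate 95% interval takes the deposited bounds as 95% bounds.

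SRF binds the CArG box, a short element with a core of A and T between a pair of Cs and a pair of Gs. MRTFs are held in the cytoplasm by monomeric actin and enter the nucleus to join SRF when actin is built into filaments, while a second set of cofactors, the TCF group of ETS factors, links SRF to ERK signalling. The genes controlled through MRTFs encode much of the machinery that builds stress fibres and focal adhesions, which mesenchymal cells use to spread, pull on matrix and migrate.

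Promoter windows of 250 bases before to 50 after the start site (RefSeq, GRCm38.p6) were at hand for 34 of the 38 genes, 42 windows in all; Tagln, Myh11, Csrp2 and Svil had no entry. An exact CArG box, searched on both strands, lay in 8 of the 42 windows (19%), against 535 of all 32851 windows (1.63%) and 1.31% of the windows of compared genes. The 8 windows belong to 7 genes. They are shown here because SRF binds the box. The 38 genes were chosen as known SRF targets, so a share above that of all windows is no separate support for that choice. Each stretch runs 5′ to 3′ on the gene's strand with the box in capitals and its flanks of up to 20 bases in lower case.
Cnn2: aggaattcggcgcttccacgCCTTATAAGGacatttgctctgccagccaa
Filip1l: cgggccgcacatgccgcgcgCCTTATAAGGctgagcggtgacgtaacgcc
Lima1: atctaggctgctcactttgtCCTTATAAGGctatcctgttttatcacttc
Vcl: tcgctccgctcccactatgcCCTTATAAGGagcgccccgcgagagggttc
Myl9: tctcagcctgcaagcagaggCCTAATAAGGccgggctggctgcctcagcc
Fhl1: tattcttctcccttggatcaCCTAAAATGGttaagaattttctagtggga
Fhl2, inner start: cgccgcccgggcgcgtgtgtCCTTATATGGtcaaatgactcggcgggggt
Fhl2, outer start: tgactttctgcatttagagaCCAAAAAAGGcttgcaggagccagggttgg

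Cnn2, Filip1l, Lima1 and Vcl carry the same palindromic spelling, CCTTATAAGG, which occurs in 14 of all 32851 windows (0.0426%). Its first base lies 56 bases before the start site in Cnn2 (chr10:79988524-79988573 for the stretch shown, plus strand), 62 in Filip1l (chr16:57549160-57549209, plus), 47 in Lima1 (chr15:99820167-99820216, minus) and 227 in Vcl (chr14:20929151-20929200, plus). The box of Myl9 begins 161 bases before the start (chr2:156775283-156775332, plus) and that of Fhl1 102 bases before it (chrX:56779561-56779610, plus). The boxes of Fhl2 begin 31 bases (chr1:43163963-43164012, minus) and 96 bases (chr1:43196828-43196877, minus) before their own starts. A box with a single G or C in its core was found in 5 windows (11.9%), against 8.5% of all windows and 7.54% of those of compared genes; of these, Myl9 has an exact box too, and Lpp, Myl12a and Tpm3 do not.

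Other short motifs were searched on both strands in the same windows. GGAATG, the core bound by TEAD factors, was in 12 of 42 windows (28.6%), against 14.7% of all windows and 12.2% of the windows of compared genes. TATAAA was in 5 (11.9%), below the 13.6% of all windows and above the 6.85% of the windows of compared genes. GGGCGG, the GC box bound by SP1, was in 26 (61.9%), against 35.7% of all windows and 64.5% of the windows of compared genes. The upstream stretches of Vcl, the member with the narrowest interval around its fold among those whose fold interval stood off 0, and of Myl9, one of the most abundant members, show how these elements lie together. Capitals mark the CArG box, GGAATG and GGGCGG on either strand.
Vcl, chr14:20929148-20929397, plus strand: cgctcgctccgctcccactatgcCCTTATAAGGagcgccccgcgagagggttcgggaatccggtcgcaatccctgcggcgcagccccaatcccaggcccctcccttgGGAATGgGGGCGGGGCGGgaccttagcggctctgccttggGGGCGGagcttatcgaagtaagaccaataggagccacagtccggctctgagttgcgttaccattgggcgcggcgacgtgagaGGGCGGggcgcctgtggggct
Myl9, chr2:156775214-156775463, plus strand: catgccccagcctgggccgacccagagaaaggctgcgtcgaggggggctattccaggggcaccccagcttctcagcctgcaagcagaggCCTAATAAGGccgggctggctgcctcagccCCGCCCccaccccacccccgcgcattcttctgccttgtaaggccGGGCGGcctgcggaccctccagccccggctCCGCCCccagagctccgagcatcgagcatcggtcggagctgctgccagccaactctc
In Vcl 4 GGGCGG motifs were found, of which a pair overlap, with 1 GGAATG beside them, and in Myl9 3 GGGCGG motifs and 0 GGAATG. A match describes the letters in the window and not a bound site.

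Sequencing depth is unknown. Intervals were widest in PDGFA cells: over all compared rows the median half-width, as a share of FPKM, was 34.7% in FGF1 cells, 49.6% in PDGFA cells and 25.6% in starved cells. Palatal mesenchyme markers were present at very unequal levels. Prrx1 had 228 FPKM in FGF1 cells, 206 in PDGFA cells and 233 in starved cells. The lowest in starved cells were Meox2 with 1.43 FPKM, Osr2 with 3.73 and Pdgfra, a PDGF receptor, with 3.87. The row of Col1a1 is a failed estimate and gives no level. The sum of the other 10 markers was 1190 FPKM in FGF1 cells, 1342 in PDGFA cells and 1196 in starved cells, of which Col3a1 made 773, 903 and 750 FPKM in the same order. Of these 10 markers 8 lay below starved cells with FGF1 (median log2 fold -0.24), against 43.3% of compared rows. With PDGFA 6 did (median -0.12), against 5925 of 11702 compared rows. Of the 10 markers 0 were called, where 0.555% of rows were with FGF1 and 0.308% with PDGFA. Of the 9 smooth muscle and pericyte markers 5 passed 1 FPKM, and the sum of all 9 was 109 FPKM in FGF1 cells, 107 in PDGFA cells and 111 in starved cells; Myocd, the muscle-restricted relative of the MRTFs, had 0.16 FPKM in each group. Of the 10 skeletal muscle markers 5 passed 1 FPKM, and the sum of all 10 was 5.22 FPKM in FGF1 cells, 12.7 in PDGFA cells and 5.64 in starved cells. Summed levels were 4.58, 5.72 and 3.41 FPKM for 7 epithelial markers, 3.78, 4.28 and 3.59 FPKM for 5 endothelial ones, 1.67, 1.56 and 1.84 FPKM for 2 blood ones, and 46.5, 51.1 and 38.8 FPKM for 4 neural and glial ones in FGF1, PDGFA and starved cells. All 5 skeletal muscle markers that passed lay above starved cells with PDGFA, 4 of them at least 1.5-fold, with a median log2 fold of 0.80 and 0 called, and 2 of 5 did with FGF1 (median -0.05). All of the 5 but Mylpf reached 1 FPKM in PDGFA cells alone. For those, a PDGFA value above starved cells followed from the filter, so this count and median give no support of their own. Mylpf, a light chain of skeletal muscle myosin, had 2.23, 5.30 and 2.49 FPKM in FGF1, PDGFA and starved cells, and Myod1, the defining myogenic factor, 0.044, 0.258 and 0.071 FPKM. The Myod1 bounds overlap, at 0.021 to 0.514 FPKM in PDGFA cells and 0 to 0.164 in starved cells. Of the other markers that did not pass, Actn2 had 0.444 FPKM in PDGFA cells and 0.173 in starved cells. Ttn had 0.017 and 0.016 FPKM, Myf5 0.060 and 0.063, and Ckm 0 and 0.008 in the same order. In a culture, more cells of a type and more RNA per cell cannot be told apart, and the part of muscle cells in the values below was not tested.

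In starved cells these genes already stood among the most abundant transcripts, as the plot of levels shows. Tagln (SM22-alpha, an actin-binding protein of smooth muscle and of cultured fibroblasts) led with 1646 FPKM [1047 to 2245], followed by Tpm1 at 1537 [1216 to 1857], whose intervals overlap. Pfn1, which feeds actin monomers to growing filaments, had 896 FPKM and Myl9, a regulatory light chain of myosin II, 750.3 FPKM. At the low end stood Svil (supervillin) with 11.8 FPKM and Myh11, the smooth muscle myosin heavy chain, with 21.6 FPKM. By level, 30 of the 38 genes lay at or above the 90th percentile of compared rows, and 24 at or above the 95th. Together they made 3.33% of the summed FPKM of all rows in FGF1 cells, 3.97% in PDGFA cells and 3.14% in starved cells. The sums were 13813, 16659 and 12120 FPKM in those groups.

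**Figure D1:**
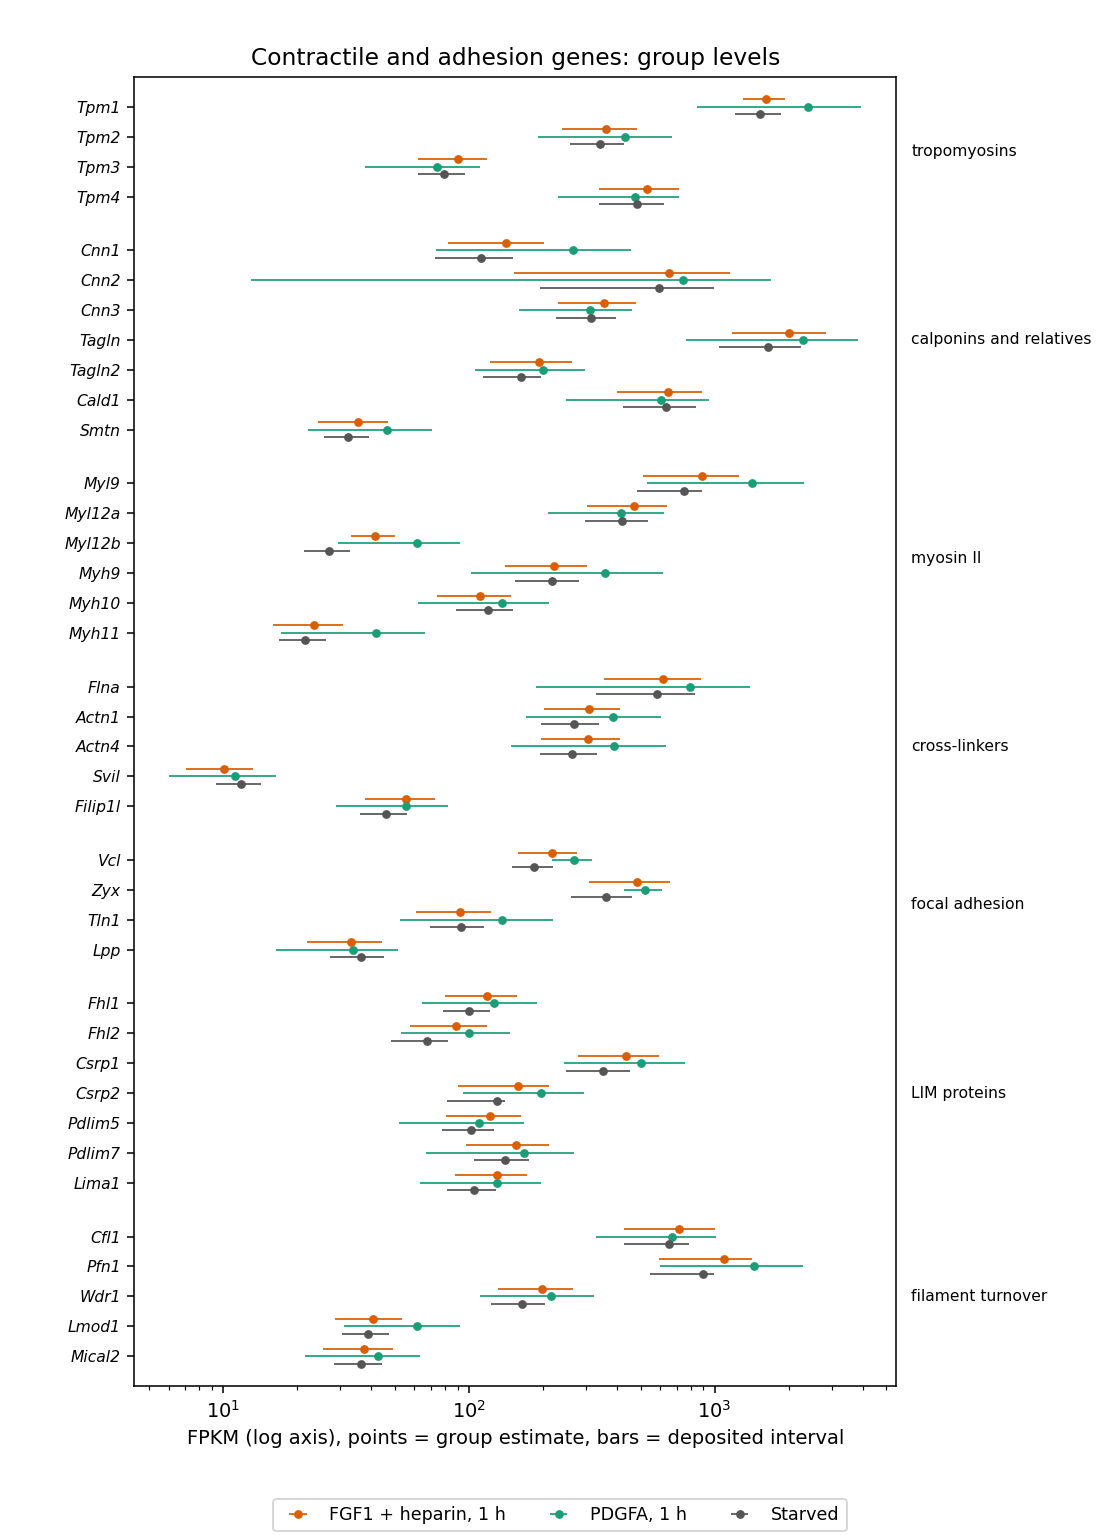
FPKM of the 38 genes on a log axis in FGF1, PDGFA and starved cells, grouped by role; points are the authors' group estimates and bars the deposited intervals. Levels run between about 10.1 FPKM (Svil) and 2402 FPKM (Tpm1), the PDGFA bars are the longest for most genes, and Myl12b is the gene whose FGF1 and starved bars do not meet.

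With PDGFA, 0 of the 38 genes had an interval apart from that of starved cells, where 0.308% of compared rows did. The values nonetheless stood above the starved value for 31 of 38 genes (81.6%), against 49.3% of compared rows, and the median log2 fold was 0.42, against -0.00 over all compared rows. By size, 9 of 38 genes (23.7%) were at least 1.5-fold above starved cells, against 3.67% of rows: Tpm1, Cnn1, Myl9, Myl12b, Myh9, Myh11, Csrp2, Pfn1 and Lmod1. Csrp2 lay just inside that limit at a log2 fold of 0.59, and Fhl2 and Actn4 just outside it at 0.57. Of the 38 genes 0 were 1.5-fold below starved cells, against 0.393% of rows, and the lowest log2 fold was that of Lpp, at -0.10. The approximate interval of the log2 fold lay above 0 for 5 genes, Cnn1, Myl12b, Myh11, Vcl and Zyx (13.2%, against 1.83% of rows).

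**Figure D2:**
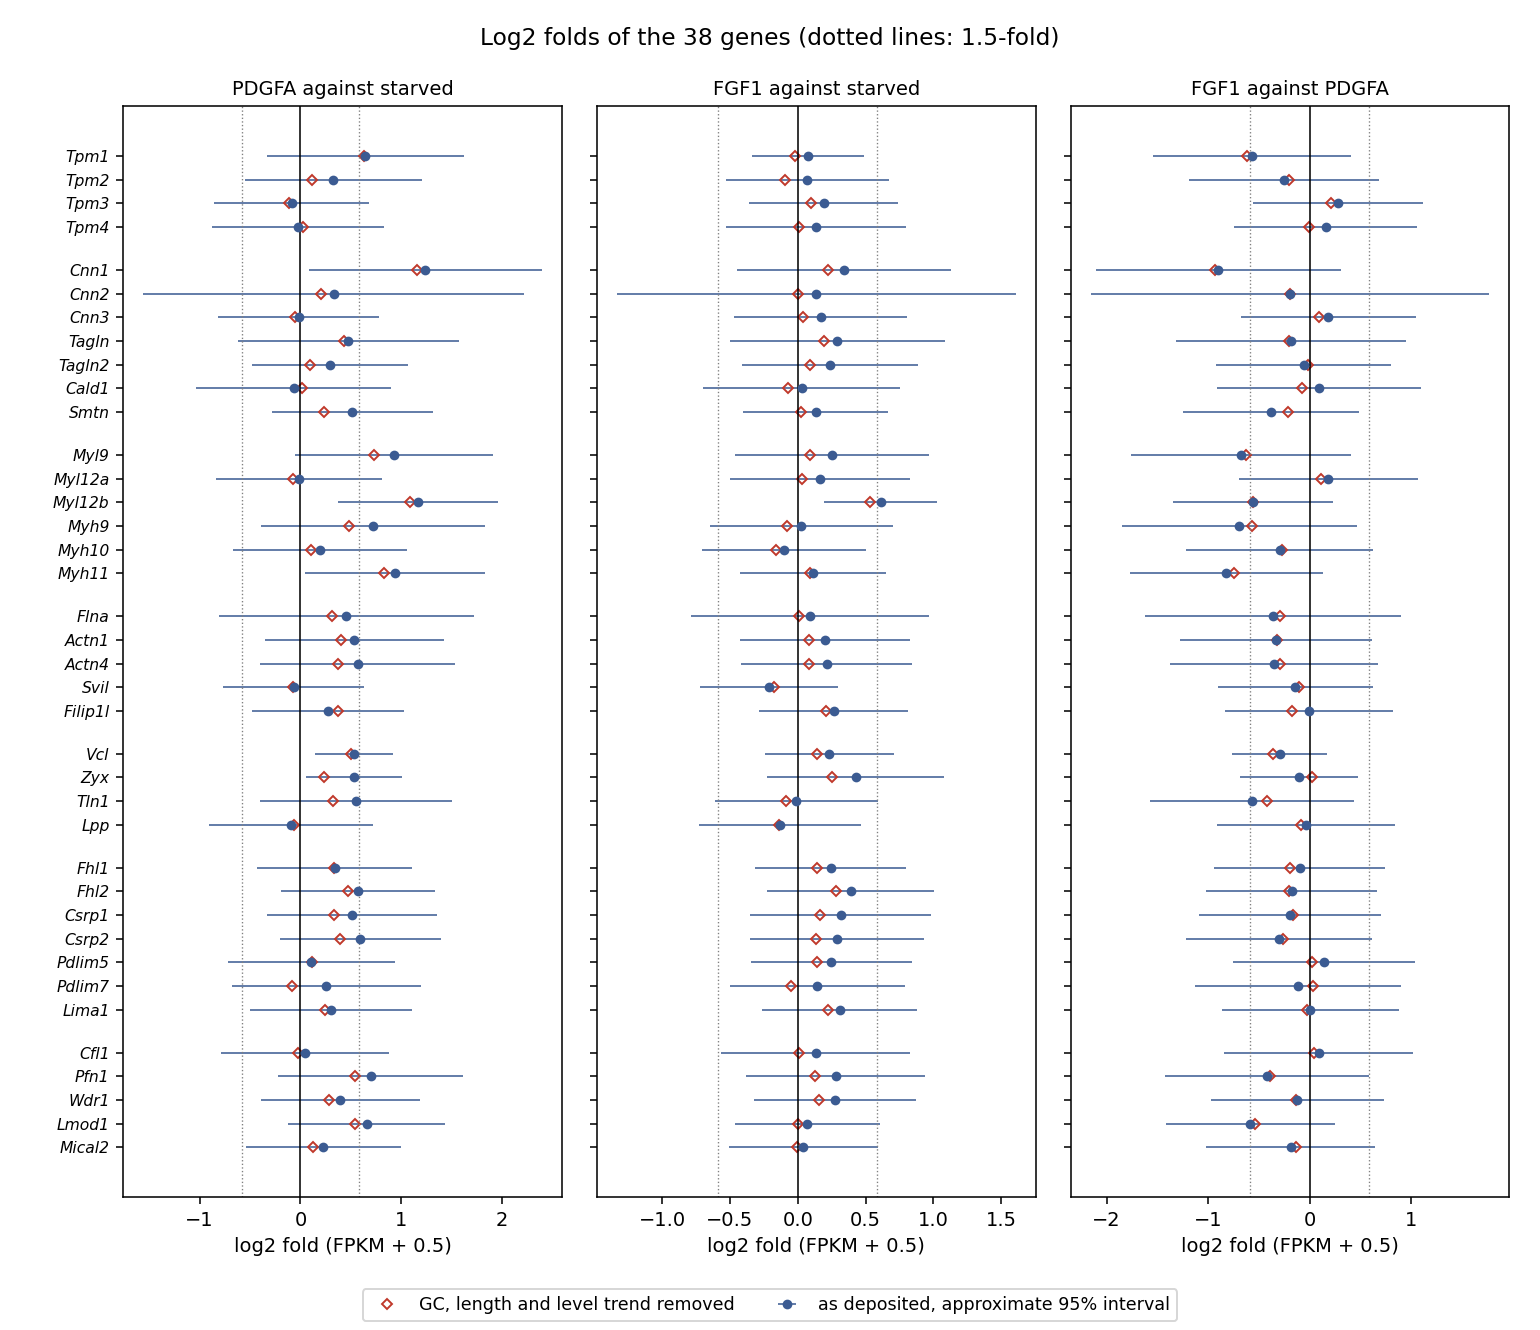
Log2 folds on FPKM + 0.5 of the 38 genes in 3 comparisons: filled points with bars are the deposited values with the approximate 95% interval, open diamonds the values with the trend on GC content, length and level removed, dotted lines 1.5-fold. PDGFA points lie right of 0 for 31 of 38 genes, FGF1 points closer to 0, and the direct comparison left of 0 for 30 of 38 genes.

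PDGFA values followed transcript GC content in this table, and the members shared in that. The members' transcripts had a median GC of 52.4%, against 50.4% for all rows, and spanned 43.4% (Filip1l) to 61.7% (Pdlim7). Across the 38 genes the PDGFA log2 fold had a Spearman correlation with GC of 0.52, and across 11466 rows of at least 200 nt it was 0.61; genes within a table share their libraries and are not independent. Of the 27 members at or above the median GC 26 stood above starved cells, with a median log2 fold of 0.53, where all rows on that side had a median of 0.12. Of the 11 members below the median GC only 5 did, with a median of -0.02, where all rows on that side had a median of -0.11.

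The log2 folds were then taken again after a curve on GC, transcript length and level, fitted over all rows, had been subtracted. The members' median for PDGFA was 0.30 with that trend removed, and 31 of 38 genes lay above 0, against 48.9% of rows, though they were not all the same genes: Tpm4 and Cald1 now lay above 0, and Pdlim7 and Cfl1 below it. Those past 1.5-fold were now 5 (13.2%, against 2.02% of rows): Tpm1, Cnn1, Myl9, Myl12b and Myh11. Pdlim7, with the highest GC, had a log2 fold of 0.26 as deposited and -0.09 with the trend removed. Filip1l, with the lowest GC, went the other way, at 0.27 as deposited and 0.38 with the trend removed. Across members the correlation with GC was 0.22 with the trend removed.

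**Figure D3:**
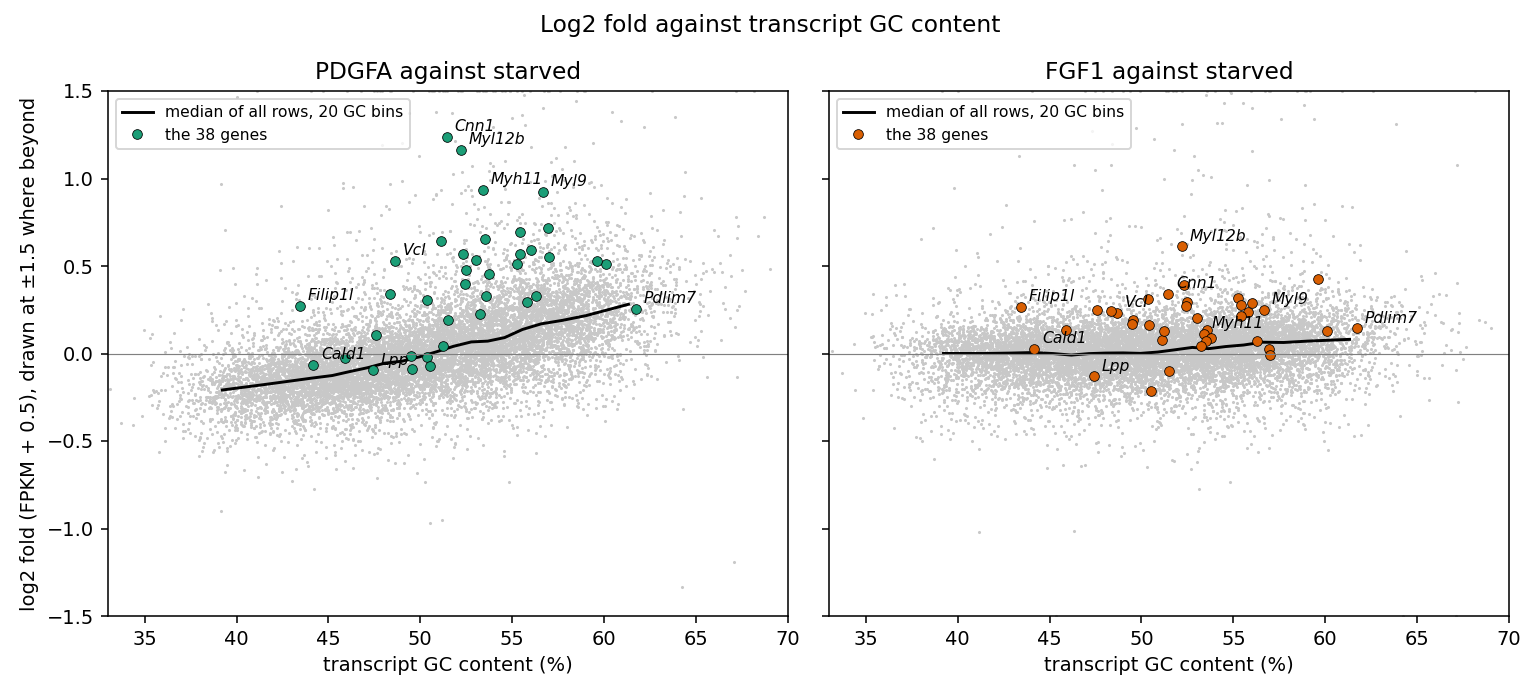
Log2 fold of PDGFA over starved cells (left) and of FGF1 over starved cells (right) against transcript GC content in percent; grey dots are all compared rows of at least 200 nt, the black line their median in 20 GC bins, and coloured points the 38 genes. The black line rises with GC for PDGFA and is nearly flat for FGF1, and Cnn1, Myl12b, Myh11 and Myl9 lie well above it on the left.

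Myosin II, the motor of stress fibres, was the group whose PDGFA values stood highest, with a median log2 fold of 0.82 over its 6 genes, or 0.61 with the trend removed. Its summed level was 1762 FPKM in FGF1 cells, 2440 in PDGFA cells and 1557 in starved cells. Myl9 had 892 FPKM [513 to 1257] in FGF1 cells, 1425 [533 to 2314] in PDGFA cells and 750.3 [483 to 888] in starved cells. All 3 of its intervals overlap, and its PDGFA log2 fold was 0.93 [-0.06 to 1.91]. The heavy chain genes had unequal PDGFA log2 folds, within approximate intervals that overlap. Myh11 had 23.4 FPKM [16.0 to 30.7] in FGF1 cells, 41.7 [17.1 to 66.3] in PDGFA cells and 21.6 [16.9 to 26.3] in starved cells, a PDGFA log2 fold of 0.94 [0.04 to 1.83]. Myh9, the non-muscle heavy chain IIA, had 222, 359 and 218 FPKM in FGF1, PDGFA and starved cells. Its PDGFA log2 fold was 0.72 [-0.39 to 1.83], or 0.48 with the trend removed. Myh10, the heavy chain IIB, was nearly level, with 111, 137 and 119.8 FPKM in the same order, and its PDGFA log2 fold was 0.19. The PDGFA interval of Myh9 reached down to 102 FPKM and that of Myh10 to 62.2 FPKM, both below the starved values.

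Myl12b and Myl12a encode near-identical regulatory light chains of non-muscle myosin and lie side by side on chromosome 17, at chr17:70973963-70990516 and chr17:70993793-71002533 in mm10. Myl12b had 41.6 FPKM [33.3 to 49.9] in FGF1 cells, 61.3 [29.4 to 92.4] in PDGFA cells and 27.1 [21.3 to 32.8] in starved cells. The FGF1 interval lies wholly above that of starved cells, and the PDGFA interval overlaps it although its value is the highest. Myl12a had 472 FPKM [302 to 639], 415 [209 to 620] and 421 [296 to 538] in FGF1, PDGFA and starved cells, with all intervals overlapping. The log2 fold with PDGFA was 1.17 [0.37 to 1.96] for Myl12b and -0.02 [-0.84 to 0.81] for Myl12a. These genes share reads that could be split between them: 17.4% of the 31-base words of Myl12b and 31.3% of those of Myl12a occur in transcripts of other genes, with each other as the main partner. Both are therefore uncertain.

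Calponins bind actin filaments and slow the myosin motor. Cnn1, the smooth muscle calponin, had the largest PDGFA fold of all 38 genes. It had 142 FPKM [82.1 to 202] in FGF1 cells, 265 [73.4 to 457] in PDGFA cells and 112 [72.7 to 152] in starved cells, and the 3 intervals overlap. Its log2 fold with PDGFA was 1.24 [0.08 to 2.40], or 1.15 with the trend removed. Cnn3, a calponin of non-muscle cells, had 354, 312 and 315 FPKM in FGF1, PDGFA and starved cells, and 27.1% of its words are shared, so its level is uncertain. Cnn2 had 653, 747 and 594 FPKM in the same order, inside intervals as wide as 12.9 to 1697 FPKM in PDGFA cells. The deposited loci of Cnn1, Cnn2 and Tagln span 33.4, 98.9 and 11.3 times the RefSeq gene, so these rows carry the position of a larger region; the other members' loci stayed within 1.5 times the gene.

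Among the relatives of the calponins, the transgelins stood in like proportions in all 3 groups. Tagln had 2016 FPKM [1181 to 2852] in FGF1 cells, 2290.4 [765 to 3816] in PDGFA cells and 1646 in starved cells. Tagln2, its non-muscle form, had 193, 201 and 163 FPKM in FGF1, PDGFA and starved cells, and the share of Tagln in the pair was 91.3%, 91.9% and 91.0% in that order. Cald1 (caldesmon, which restrains actomyosin) had 644, 603 and 632 FPKM. Smtn (smoothelin, a protein of contractile smooth muscle) had 35.5, 46.4 and 32.4 FPKM, and its PDGFA log2 fold was 0.51, or 0.23 with the trend removed.

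Tropomyosins lie along the actin filament and govern which myosins and severing factors reach it. Tpm1 had 1622 FPKM [1304 to 1941] in FGF1 cells, 2402 [852 to 3957] in PDGFA cells and 1537 [1216 to 1857] in starved cells, and all 3 intervals overlap. Its PDGFA log2 fold was 0.64, and 0.63 with the trend removed. Tpm2 had 360.0, 430.1 and 343 FPKM in FGF1, PDGFA and starved cells, with a PDGFA log2 fold of 0.33. Tpm4 had 529, 474 and 482 FPKM and Tpm3 90.4, 74.5 and 79.2 FPKM, so that both were highest in FGF1 cells, within overlapping intervals. Of the words of Tpm3 60.9% occur in transcripts of other genes, 60.8% in Tpm3-rs7, and its level is uncertain; Tpm4 shared 16.5%.

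The make-up of some families differed between the group estimates, as the folds of their members were unequal. Cnn1 was 12.4% of the calponin sum in FGF1 cells, 20.03% in PDGFA cells and 10.98% in starved cells. Myl9 was 63.5%, 74.9% and 62.6% of the regulatory light chain sum in FGF1, PDGFA and starved cells. Tpm1 made 62.4%, 71.0% and 62.9% of the tropomyosin sum in the same order. In each of these families the FGF1 make-up lay close to that of starved cells. The alpha-actinin pair showed no such difference, with Actn1 at 50.2%, 49.8% and 50.4%. These shares are ratios of group estimates whose intervals overlap, save those of Myl12b in FGF1 and starved cells, and the differences between groups rest on no test. They use deposited values without removing the trend on GC, and the part of GC in them was not tested. The sums include Cnn2, with its wide intervals, and Cnn3, Myl12a, Myl12b and Tpm3, whose levels are uncertain.

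**Figure D4:**
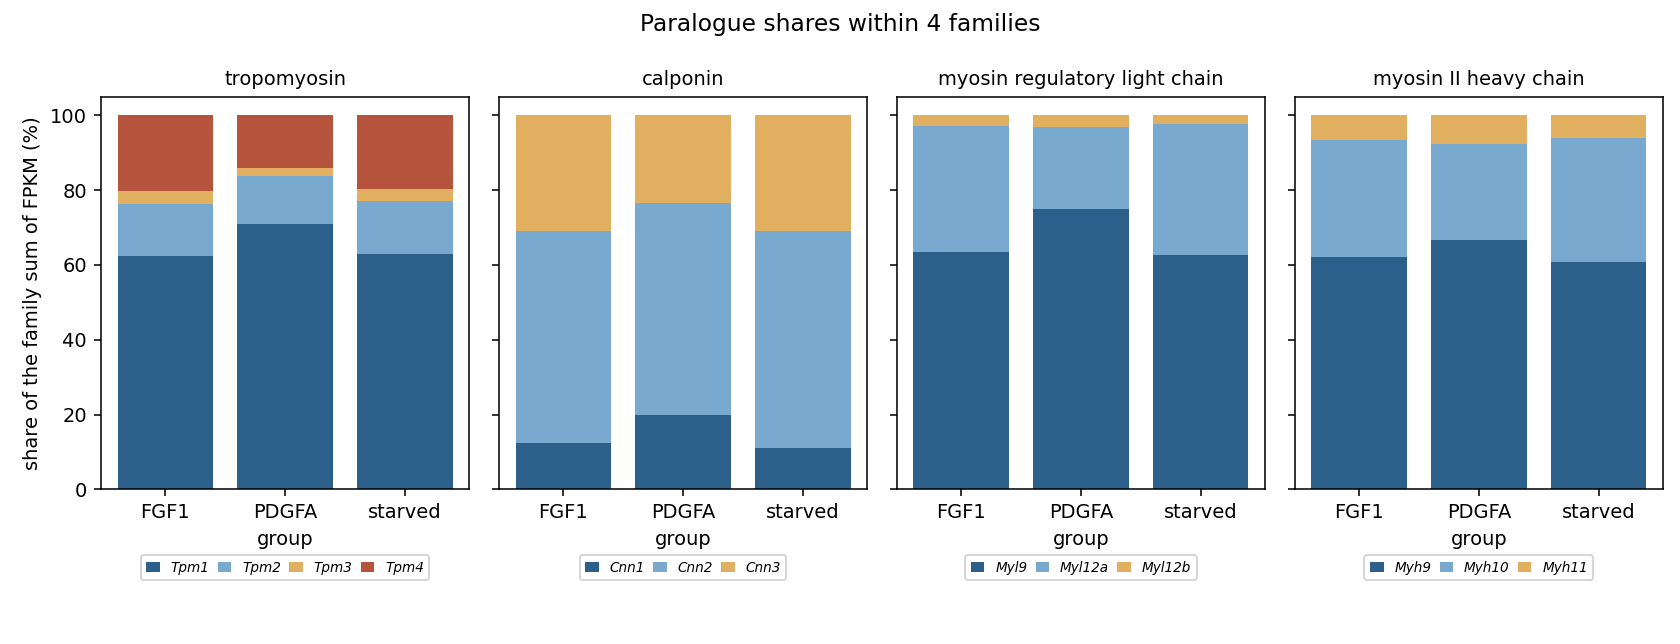
Share of each paralogue in its family's summed FPKM, in percent, in FGF1, PDGFA and starved cells for tropomyosins, calponins, myosin regulatory light chains and myosin II heavy chains. The dark bottom segments (Tpm1, Cnn1, Myl9 and Myh9) are largest in PDGFA cells, and the FGF1 and starved bars look alike. Shares use deposited values, with no trend removed.

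Focal adhesion genes encode the links between integrins and actin. Vcl (vinculin) came nearest to a call with PDGFA. It had 217 FPKM [159 to 275] in FGF1 cells, 267 [217 to 316] in PDGFA cells and 185 [149 to 220.0] in starved cells. The PDGFA and starved intervals thus meet over a few FPKM at their ends. Its PDGFA log2 fold was 0.53 [0.14 to 0.91], or 0.50 with the trend removed, at the 97.3rd percentile of rows. Zyx (zyxin, which gathers at strained stress fibres) had 485 FPKM [309.6 to 658], 521 [429 to 613] and 361 [260.3 to 461] in FGF1, PDGFA and starved cells. The log2 fold of Zyx with PDGFA was 0.53 [0.05 to 1.01], or 0.24 with the trend removed.

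In PDGFA cells the half-widths of Vcl and Zyx were 18.6% and 17.7% of the FPKM, where the median member had 51.6%. Their fold intervals stood off 0 with ratios of 1.44 each, while Tln1, with a ratio of 1.47 and a half-width of 61.4%, did not. Tln1 (talin, which activates integrins) had 91.8, 136 and 92.6 FPKM in FGF1, PDGFA and starved cells, and its FGF1 value was level with that of starved cells. Lpp, a zyxin relative, stood slightly below starved cells with both ligands, at 33.1, 33.9 and 36.3 FPKM. The genes of an adhesion therefore covered a range of PDGFA log2 folds, -0.10 for Lpp to 0.55 for Tln1.

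Cross-linkers bundle actin or tie it to the membrane. Flna (filamin A) had 618 FPKM [354 to 883] in FGF1 cells, 794 [187 to 1399] in PDGFA cells and 580.4 [328 to 833] in starved cells. Actn1 and Actn4, the non-muscle alpha-actinins, had like values: Actn1 had 307, 387 and 267 FPKM and Actn4 305, 390.3 and 263 FPKM in FGF1, PDGFA and starved cells. Their PDGFA log2 folds were 0.53 and 0.57, with intervals that include 0. Filip1l, a filamin-interacting protein, had the same value with both ligands, 55.4 FPKM with FGF1 and 55.7 with PDGFA, against 46.0 in starved cells. Svil, which links myosin II and actin to the membrane, had 10.1 FPKM with FGF1 and 11.2 with PDGFA, against 11.8 in starved cells.

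LIM-domain proteins read filament tension and carry signals to the nucleus. All 7 stood above starved cells with both ligands, without a call, where 56% of compared rows did with FGF1 and 49.3% with PDGFA. With the trend removed 6 of 7 lay above 0 with each ligand, and Pdlim7 lay below it, at -0.05 with FGF1 and -0.09 with PDGFA. Fhl2 had 88.6 FPKM [57.4 to 119] in FGF1 cells, 100.4 [53.2 to 148] in PDGFA cells and 67.5 [48.3 to 82.4] in starved cells. Its FGF1 log2 fold of 0.39 was among the 3 largest of the 38 genes. Fhl1 had 118, 127 and 99.9 FPKM in FGF1, PDGFA and starved cells. The cysteine-rich LIM proteins Csrp1 and Csrp2, partners of alpha-actinin, had FGF1 log2 folds of 0.32 and 0.29 and PDGFA log2 folds of 0.51 and 0.59. Csrp1 had 437, 500.2 and 351 FPKM and Csrp2 158, 196 and 129.8 FPKM in FGF1, PDGFA and starved cells. Lima1 (EPLIN, a filament stabiliser) had 130.5 FPKM with FGF1 and 130.02 with PDGFA, against 105 in starved cells. The PDZ-LIM genes Pdlim5 and Pdlim7 had 122, 110.2 and 102 FPKM and 155, 168 and 140.4 FPKM in FGF1, PDGFA and starved cells.

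Filament turnover genes set the supply of actin subunits. Pfn1 (profilin) had 1088 FPKM [592 to 1422] in FGF1 cells, 1453 [597 to 2292] in PDGFA cells and 896 [544 to 993] in starved cells, with a PDGFA log2 fold of 0.70 [-0.22 to 1.61]. Cfl1 (cofilin, which severs filaments) had 715, 673 and 652 FPKM in FGF1, PDGFA and starved cells. Wdr1, the cofactor of cofilin, had 199, 216 and 164 FPKM in the same order. Lmod1 (leiomodin, a filament nucleator of smooth muscle) had 40.9 FPKM [28.5 to 53.3] in FGF1 cells, 61.6 [30.9 to 92.2] in PDGFA cells and 38.9 [30.3 to 47.4] in starved cells. Its value thus stood above starved cells with PDGFA and near them with FGF1, within overlapping intervals. Mical2, an oxidase of nuclear actin that is known to promote MRTF activity, had 37.3, 42.6 and 36.3 FPKM.

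With FGF1, Myl12b rose and was the 1 gene of 38 called (2.63%, against 0.555% of compared rows in either direction and 0.538% higher), with a ratio of 1.54 and a log2 fold of 0.61 [0.20 to 1.03]; its level is uncertain for the words it shares with Myl12a. It was also the 1 gene past 1.5-fold (1.26% of rows were) and the 1 gene whose fold interval lay above 0 (1.08% of rows). The call ended with quantile normalization and with the trend removed, where its log2 fold was 0.53 and 0 genes passed 1.5-fold, against 1.09% of rows. The FGF1 value stood above the starved value for 34 of 38 genes (89.5%, against 56% of rows). Their median log2 fold was 0.18, against 0.02 over all rows. After Myl12b, the next largest FGF1 log2 folds were those of Zyx (0.43) and Fhl2 (0.39), followed by Cnn1 at 0.34. The 4 genes below the starved value (10.5%, against 43.3% of rows) were Myh10, Svil, Tln1 and Lpp, with log2 folds no lower than -0.21. With the trend removed the median was 0.08, with 28 of 38 genes above 0, against 49.5% of rows. Across the 38 genes the FGF1 log2 fold had a Spearman correlation of -0.55 with transcript length, against -0.25 over all rows. With GC it was 0.03, against 0.18 over all rows. With the starved level it was 0.12, against 0.35 over all rows. Over all rows, FGF1 log2 folds thus leaned upward with level, and 30 of the 38 genes lay at or above the 90th percentile of level. The part of level in the members' FGF1 values was not tested. Both ligands were set against the same starved cells, so the direction shared by many members is not independent support.

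Set directly against PDGFA cells, FGF1 cells had lower values for 30 of 38 genes (78.9%, against 46.9% of rows), and 0 of 38 were called, against 0.12% of rows. The median log2 fold of FGF1 over PDGFA was -0.19, against 0.01 over all rows, and -0.20 with the trend removed, when 7 of 38 genes were above 0, against 50.3% of rows. At least 1.5-fold lower with FGF1 were 5 genes (13.2%, against 1.99% of rows). They were Cnn1, with a log2 fold of -0.90 [-2.10 to 0.31], Myh11 at -0.82 [-1.77 to 0.13], Myh9 at -0.69, Myl9 at -0.68 and Lmod1 at -0.59, which lies at the limit. Higher with FGF1 were 8 genes (21.1%, against 53.1% of rows): Tpm3, Tpm4, Cnn3, Cald1, Myl12a, Pdlim5, Lima1 and Cfl1. The largest of these log2 folds was 0.28, that of Tpm3, and 0 of 38 intervals of the direct log2 fold lay above 0 or below 0, where 0.171% and 1.1% of rows did. In 26 of 38 genes the order of values was PDGFA above FGF1 above starved cells. That order was not counted over all rows and follows in part from the counts above, so it gives no support of its own. All of these intervals come from group estimates, and an interval that includes 0 does not show that the ligands act alike.

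Members with and without a CArG box in the windows above were set side by side as a description. All 7 genes with an exact box stood above starved cells with both ligands, and their median log2 fold was 0.25 for FGF1 and 0.34 for PDGFA. Of all 38 members 34 stood above with FGF1 and 31 with PDGFA, and of all compared rows 56% and 49.3%. The 24 genes with neither an exact box nor one with a G or C in its core had medians of 0.14 for FGF1 and 0.48 for PDGFA, with 22 and 21 of 24 above starved cells in that order. With the trend removed the medians with PDGFA were 0.38 for the 7 and 0.26 for the 24, so the order of these groups depends on that step. Median GC was 50.4% in the 7 and 53.4% in the 24. Lpp, Myl12a and Tpm3, with the inexact box only, had PDGFA log2 folds of -0.10, -0.02 and -0.09.

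Other genes of the pathway came from lists that leave the members out. The actins, which are classic SRF targets, stood above starved cells with PDGFA for 6 of 6 genes, against 49.3% of compared rows. Their median log2 fold was 0.92. Of the 6 actins 2 were called higher, Acta1 and Actc1, where 0.308% of compared rows were called. They had the lowest actin levels in starved cells, 17.2 and 1.46 FPKM, against 2745 for Acta2 and 1552 for Actb, which were not called. The part of muscle cells in the actin values was not tested. In FGF1 cells 0 of 6 actins were called against starved cells, where 0.555% of compared rows were, and their median was 0.30. Srf itself had 42.6 FPKM [29.2 to 55.8] in FGF1 cells, 58.4 [27.5 to 89.3] in PDGFA cells and 28.2 [22.1 to 34.3] in starved cells, while Mrtfa had 33.1, 39.7 and 30.9 FPKM and Mrtfb 4.16, 4.99 and 5.10 FPKM. Of the SRF and cofactor genes 0 of 6 compared were called with either ligand (0.555% of rows with FGF1, 0.308% with PDGFA).

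Immediate early genes listed as targets of SRF with TCF cofactors differed in scale from the members. Of these 8 genes 7 were called higher with FGF1 (0.538% of compared rows were) and 5 with PDGFA (0.308% of rows). Their median log2 folds were 2.61 and 2.30. Some began near the floor, with Egr2, Egr3 and Fosb at 0.52, 0.52 and 0.27 FPKM in starved cells. Which cofactor acted on them was not tested. Other focal adhesion genes, 12 in number, had 0 calls, where 0.555% of rows were called with FGF1 and 0.308% with PDGFA. Their medians were 0.11 with FGF1 and 0.19 with PDGFA. Bcar1, an adhesion scaffold, had the largest log2 folds among them, 0.37 and 0.60.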

How the data were processed

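The deposited table holds 1 FPKM per gene and group, each with bounds (columns for a low and a high limit, per the file headers), whose level is not stated. Per the submitters' processing notes the tools were CASAVA, TopHat and Cuffdiff, on build mm10; their versions, settings, annotation and treatment of strand and of multiply matching reads: not given in the sources used here. Since FPKM is relative to the total, a change in abundant genes moves all others.

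Limma on values per library could not be run, because the table holds group estimates; intervals lying apart, with each FPKM inside its own interval, replaced it. The members, lists and tests were chosen with earlier results of these data known. A row was compared if any group reached 1 FPKM and no estimate had failed (2 rows had). Of 23286 rows, 22992 were named from RefSeq (GRCm38.p6) and 126 from GENCODE M21, and 168 had no name. GC content, length and shared 31-base words came from GENCODE M21 transcripts, with GC for 98.9% of compared rows. The trend was a cubic robust regression of the log2 fold on GC, log2 length and log2 level over 11466 rows of at least 200 nt. Folds with the trend removed were checked on simulated data with known folds. The simulated noise was smaller than the errors of the members' folds. Calls were counted there but held to no limit, so the calling rule was not checked at the noise of these data. All 38 members are named, and of each other pathway list at most 4 genes. One further gene list is not reported here. Positions are 1-based. Scripts ran under Python 3.11.15; statsmodels 0.14.6 fitted the trend, pandas 2.3.3, numpy 2.4.6 and scipy 1.17.1 served the rest, with plots by matplotlib 3.10.9.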

Additional observations from a re-analysis of the deposited data

How the results depend on the processing

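Against starved cells, 5 genes had a PDGFA fold interval off 0, where 0 had intervals apart. The 9 genes at least 1.5-fold higher with PDGFA became 4 with quantile normalization, 5 with the trend on GC, length and level removed and 2 at a 2-fold limit. For FGF1, the 1 called gene and the 1 gene past 1.5-fold (Myl12b in both) became 0 with quantile normalization and 0 with the trend removed, and 0 genes passed a 2-fold limit. The 5 genes 1.5-fold lower with FGF1 than with PDGFA became 0 at a 2-fold limit and ranged between 4 and 6 otherwise. Median log2 folds kept their sign under every alternative run: 0.23 (quantile normalization) to 0.48 (without members sharing 20% or more of their words) for PDGFA, 0.07 to 0.20 for FGF1, and -0.21 to -0.19 for FGF1 against PDGFA. The single-gene value that moved by more than its own error was that of Zyx with PDGFA, with the trend removed. The pseudocounts 0.1 and 1 and minimum FPKM of 0 and 5 changed no count by over 1.5 times. No paired analysis was possible because the columns hold 1 estimate per group, and leave-one-out fits were not run for the same reason. Depth is unknown, and the wide PDGFA intervals limit what can be called: the median member's half-width there was 51.6% of the FPKM.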

Other observations

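The CCTTATAAGG spelling of the CArG box also lay in windows of genes outside the members, named here after their values were seen. Of these, 4 were compared: Nr2f6, an orphan nuclear receptor, had 30.8 FPKM in FGF1 cells, 43.6 in PDGFA cells and 26.2 in starved cells, with a PDGFA log2 fold of 0.73. Glipr2, Gstp1 and Myadm had FGF1 log2 folds of 0.06, 0.17 and 0.22 and PDGFA log2 folds of 0.21, -0.16 and 0.09.

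Over all compared genes with any exact CArG box in a window, leaving out the members, 95 of 140 (67.9%) stood above starved cells with FGF1 and 93 of 140 (66.4%) with PDGFA, with median log2 folds of 0.07 and 0.08. Among 9106 rows of genes without such a box the shares were 56.3% with FGF1 and 49% with PDGFA, with medians of 0.02 and -0.01. At least 1.5-fold above starved cells were 4.29% of the 140 with FGF1 and 9.29% with PDGFA, against 1.11% and 2.68% of the rows without a box. These are descriptions of group estimates, and GC content was not matched.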
